A study of Cubamyces sp. BRFM 1775 with 14 samples.

Results

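A set of 72 genes of the wood-decaying fungus Leiotrametes sp. BRFM1775, out of 1052 genes in the deposited table, was raised moderately on cellulose and raised on all 3 plant materials. The members were chosen from the deposited log2 values themselves. A gene was a member when its value on cellulose lay at least 1 and under 4 log2 units above its value on maltose, and its values on wheat straw, pine and aspen each lay at least 1 above maltose. The set is called moderately induced, and the data bear this out for cellulose, where the rule holds an upper limit. They do not for the plant materials, where the rule holds none: 18 members stood at least 4 log2 units above maltose on pine, 14 on aspen and 13 on wheat straw. Every difference from maltose was used by the rule, so these differences are given as a description, without a test.

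The fungus, which GEO lists under Cubamyces, was kept in shaken flasks (120 rpm, 30 °C) holding 100 ml of medium, and the RNA was taken after 3 days. The control cultures held 20 g/l maltose. The cultures on cellulose (Avicel, a microcrystalline powder), on wheat straw fragments below 2 mm and on pine wood fragments below 2 mm held 15 g/l of that substrate with 2.5 g/l maltose, so maltose was present in these groups too, at a lower concentration. Aspen, milled to 1 mm, was also given at 15 g/l, but the labels misprint its maltose concentration. All samples are of 1 strain. No group held less maltose without an added substrate, so lower maltose and the added substrate cannot be told apart in any difference from the control.

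As background, fungi of the order Polyporales decay wood by secreting enzymes that cut cellulose and hemicelluloses and, in white-rot species, oxidise lignin. Maltose is a soluble sugar that is taken up readily, and in many filamentous fungi an easily used sugar lowers the expression of genes for polymer breakdown, which is called carbon catabolite repression. Cellulose is a pure glucose polymer, whereas a straw or a wood also holds hemicelluloses, lignin, pectin and extractives, and softwood and hardwood differ in the kinds of hemicellulose and lignin they hold. The table names genes only by the protein numbers of the MycoCosm genome portal. It gives no gene names, products or sequences, so no role is stated for any member and members are described by number.

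The labels list 14 samples, 3 on each substrate except wheat straw with 2. The table gives 1 mean log2 value per substrate and gene, which is called the level here. Whole read numbers of 13 libraries were recovered from these means, 2 of them on cellulose and the labelled number elsewhere. The library numbers used here follow the size factors, lowest first on each substrate, and cannot be matched to the labelled replicates. Size factors lay between 0.426 and 1.61, and the median solved gene had 108 to 799 reads per library. Of the 72 members, 47 were solved in every library. The others were mostly highly expressed on pine or aspen, beyond the level up to which recovery was tried. For these the deposited mean was kept and the spread was taken from the other substrates. Normalised reads are reads divided by the size factor of the library, and all differences refer to log2(normalised reads + 1), a scale that shrinks changes at low read numbers. The labels do not say whether each library had its own flask. The p-values therefore reflect the spread among these libraries alone, and that spread may be technical. For a gene not solved on a substrate, the spread on that substrate does not enter its p-values.

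The median level of the members was lowest on maltose, at 7.60, followed by cellulose at 9.64, wheat straw and aspen at 10.57 each, and pine at 10.92. Over all 1052 genes the medians were 8.30 for maltose, 8.92 for cellulose, 9.20 for wheat straw, 9.13 for aspen and 9.30 for pine. The members were thus below the median gene on maltose and above it on the other 4 substrates, which is in part what the rule asked for. Their median difference from maltose was 1.90 on cellulose, or 3.74-fold, and 2.36 on wheat straw, or 5.15-fold. It was 2.96 on pine, or 7.79-fold, and 2.73 on aspen, or 6.64-fold. Over all genes these medians were 0.10, 0.19, 0.56 and 0.30. The sizes depended on the scaling. With libraries centred on their medians the members' medians were 2.00 on pine, 1.96 on aspen, 1.5 on wheat straw and 1.29 on cellulose, beside -0.40, -0.47, -0.67 and -0.51 over all genes. Since these are bulk samples of the fungus, a larger share of hyphae that express a gene and more RNA of it per hypha cannot be told apart.

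**Figure D1:**
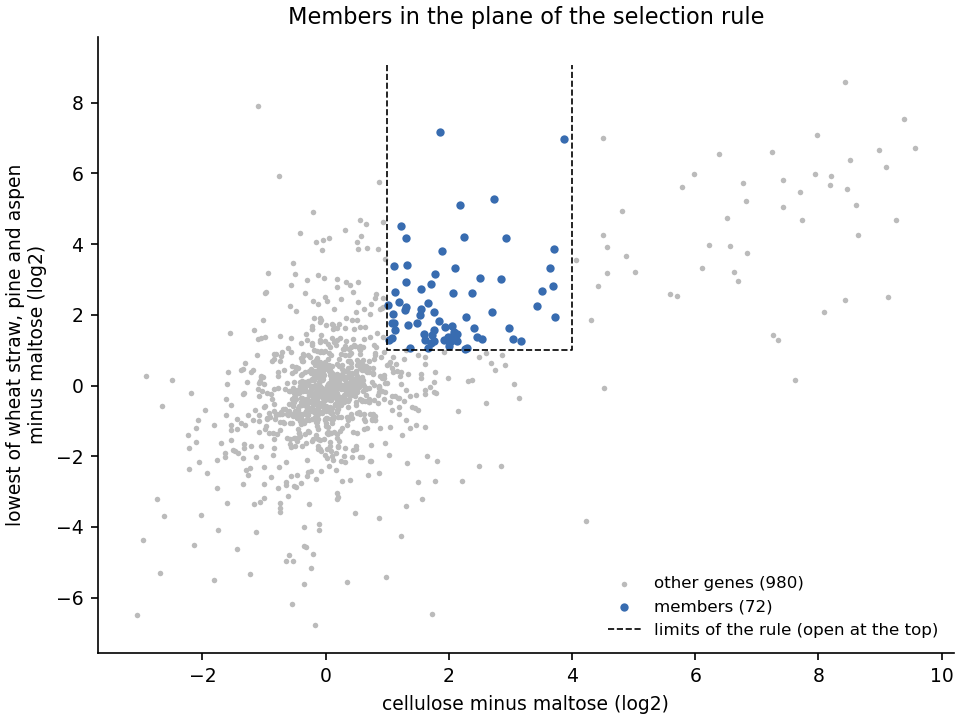
Cellulose minus maltose (x axis, log2) against the lowest of wheat straw, pine and aspen minus maltose (y axis, log2) for the 72 members (blue) and the other genes (grey), with the limits of the rule as dashed lines. On cellulose 40 members lie within 1 log2 unit of the lower limit, and the densest part of the table, near 0 on both axes, lies outside them.

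The members were crowded towards the lower limit on cellulose. On that substrate 40 of the 72 rose by 1 to 2 log2 units, 23 by 2 to 3 and 9 by 3 to 4. On pine 14 rose by 1 to 2, 23 by 2 to 3, 17 by 3 to 4 and 18 by more. At the lower limit on cellulose, genes 1432862 and 1308512 were just inside, with differences of 1.01 and 1.02, and genes 1368656 and 1416531 just outside, at 0.97 and 0.94. At the upper limit, genes 1294900 and 14439 were inside at 3.88 and 3.73, and genes 1384847 and 1423244 outside at 4.06 and 4.32. For the lowest plant material minus maltose, genes 1323653 and 1373388 were inside at 1.04 and 1.05, and genes 1321005 and 1324939 outside at 0.99 and 0.96. Values thus ran on closely across each limit.

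**Figure D2:**
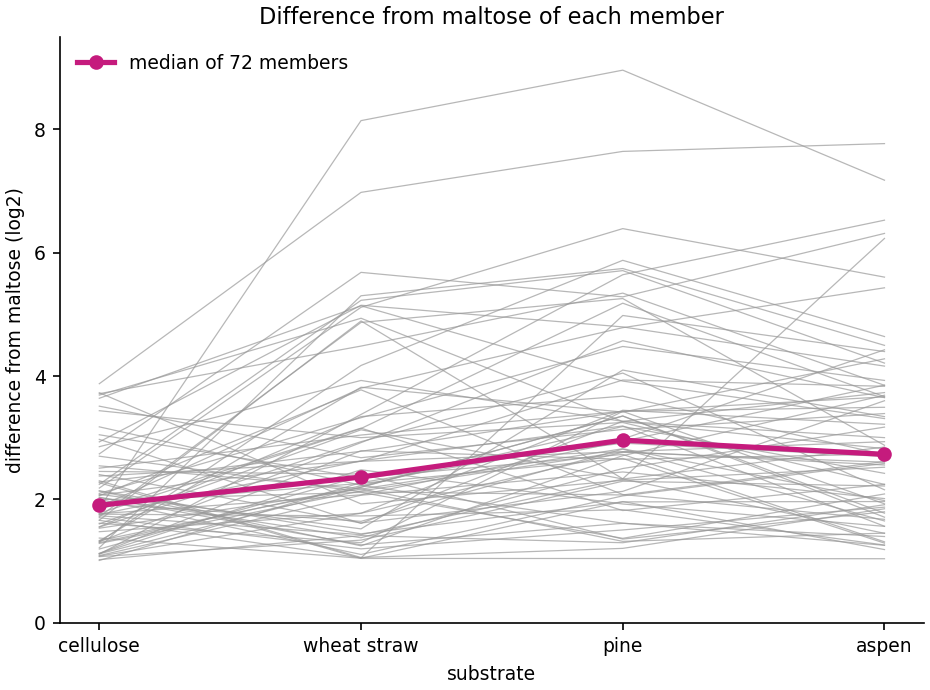
Difference from maltose (y axis, log2) of each of the 72 members (grey lines) on the 4 substrates (x axis), with the median over members in magenta. The median rises from 1.90 on cellulose to 2.96 on pine, and the highest member reaches 8.96 on pine.

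Gene 1294900 had the largest rise that was shared by all 4 substrates. It had 10, 12 and 17 reads in the maltose libraries. Its normalised reads were 196 and 260.1 on cellulose, 1811 and 2089 on wheat straw, 2693, 3207 and 3391 on pine, and 3226, 3816 and 3095 on aspen. No maltose library came near any library of another substrate, and cellulose stood between maltose and the plant materials. The differences from maltose were 3.88, 6.98, 7.64 and 7.77. Gene 765073 was next by the smallest of its 4 rises, with 25.8, 15.0 and 23.0 normalised reads on maltose and 238 and 341 on cellulose. It had 440.4 and 538 on wheat straw, 1341, 843 and 609 on pine, and 283, 423 and 256 on aspen. Its cellulose and aspen libraries overlapped, and all were above those on maltose.

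The libraries behind the rises mostly did not overlap with those on maltose. Among the members solved on both substrates, all cellulose libraries were above all maltose libraries in 65 of 71, as for 33.8% of all genes solved on both. The same held in 69 of 71 on wheat straw (44.8% of all genes), 47 of 50 on pine (42.5%) and 47 of 49 on aspen (42.8%). Nothing is read from these counts, because the rule had already selected for a higher mean.

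The 6 members whose cellulose and maltose libraries overlapped were of different kinds. Genes 1284205 and 1324534 had the lowest mean levels of all members. Gene 1324534 had 0, 2 and 6 reads in the maltose libraries and 23 and 4 on cellulose, and gene 1284205 had 0, 1 and 6 reads on maltose and 7 and 2 on cellulose. At these read numbers a rise of 1 log2 unit is a matter of a few reads. Gene 1308512, with 0, 9 and 15 reads on maltose, met the rule only with maltose library 1 included: without it the difference on cellulose was -0.09 and the lowest plant material stood 0.18 above maltose. In all, 10 members had under 20 reads in each maltose library. Gene 1342601, chosen after its values were seen, showed the other kind: its cellulose libraries held 187 and 1270.0 normalised reads, and the maltose libraries 261, 258 and 165. One cellulose library was thus within the range of maltose, and the other about as high as the plant materials, where its levels were 10.46 to 10.60.

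The 4 polymeric substrates did not raise the members equally. Pine gave the highest level for 31 members, aspen for 19, cellulose for 12 and wheat straw for 10. As shares of the members these are 43.1%, 26.4%, 16.7% and 13.9%, beside 35.7%, 23.4%, 29.3% and 11.6% of all genes over the same 4 substrates. Cellulose gave the lowest of the 4 levels for 38 members, or 52.8%, and pine for 5, or 6.94%, beside 36.3% and 22.9% of all genes. In those 38 members all plant materials were above cellulose, and in 19, or 26.4%, each by at least 1 log2 unit, beside 15.9% of all genes. In 12 members all were below cellulose, and in 22 they lay on both sides, which are 16.7% and 30.6% beside 29.3% and 34.4% of all genes. The median of the plant mean minus cellulose was 0.86, with values from -1.48 to 6.23. The rule limits cellulose from above and the plant materials only from below, so a plant mean above cellulose is favoured by the choice of members and was not tested.

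Gene 1261529 had the largest excess of plant materials over cellulose. It had 1, 0 and 11 reads in the maltose libraries and 8 and 15 on cellulose, so both substrates were near the floor. Its normalised reads reached 696 and 1007 on wheat straw, 2353, 1147 and 1195 on pine, and 453, 425 and 409 on aspen. Gene 1316378 followed, with 14.1, 9.0 and 8.09 normalised reads on maltose and 16.7 and 31.6 on cellulose. Both are members because a difference of 1.86 and 1.11 on cellulose meets the rule, although their levels of 3.43 and 4.59 there were far below those on the plant materials. At the other end, gene 14439 had 689 and 475 normalised reads on cellulose but 163 and 164 on wheat straw, 222, 186 and 235 on pine, and 237, 292 and 218 on aspen. Gene 1256195 had 1904 and 1751 on cellulose, and 439 to 1038 across the 8 plant libraries. In both genes every plant library was below both cellulose libraries and above every maltose library, with maltose levels of 5.43 and 7.66.

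Some members were close to level over the 4 polymeric substrates. The range of the 4 levels was under 1 log2 unit in 10 of the 72 members, or 13.9%, beside 28.1% of all genes, and its median over members was 1.76. Gene 1371162 had the smallest range, 0.57, with levels of 11.94, 11.91, 12.01 and 11.44 on cellulose, wheat straw, pine and aspen, against 10.18 on maltose. Its libraries were less even than its levels: pine library 1 had 10028 normalised reads, and the other pine libraries 2884 and 2443. Gene 1318197 came next at 0.63, with levels of 8.76 to 9.39 against 6.68 on maltose. Its cellulose libraries held 374 and 1192 normalised reads.

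Member levels on maltose ran from 1.08 to 11.98, and those on cellulose from 2.17 to 15.16. The highest mean levels were those of genes 1324375 and 1365931. Gene 1324375 had 4027, 2811 and 2915 normalised reads on maltose, 43131 and 31064 on cellulose, and 21784 and 19307 on wheat straw, with deposited levels of 14.78 on pine and 15.04 on aspen. Gene 1365931 was at 11.78 on maltose and between 13.85 and 14.72 elsewhere. When the levels were taken back from the log2 scale and summed, the members made up 9.44% of the table on aspen, 7.39% on pine, 6.24% on wheat straw, 4.34% on cellulose and 1.35% on maltose. The 48 genes that passed the same plant limit but rose by 4 or more on cellulose made up 9.76%, 3.40%, 13.4%, 22.7% and 0.211%. The share of the members was largest on aspen, but their summed normalised reads were larger on pine, at 462810, than on aspen, at 388096. The share of the strongly raised genes was largest on cellulose. These are sums of means of log2 values and not shares of the reads of a library, and a few abundant genes weigh most in them.

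**Figure D3:**
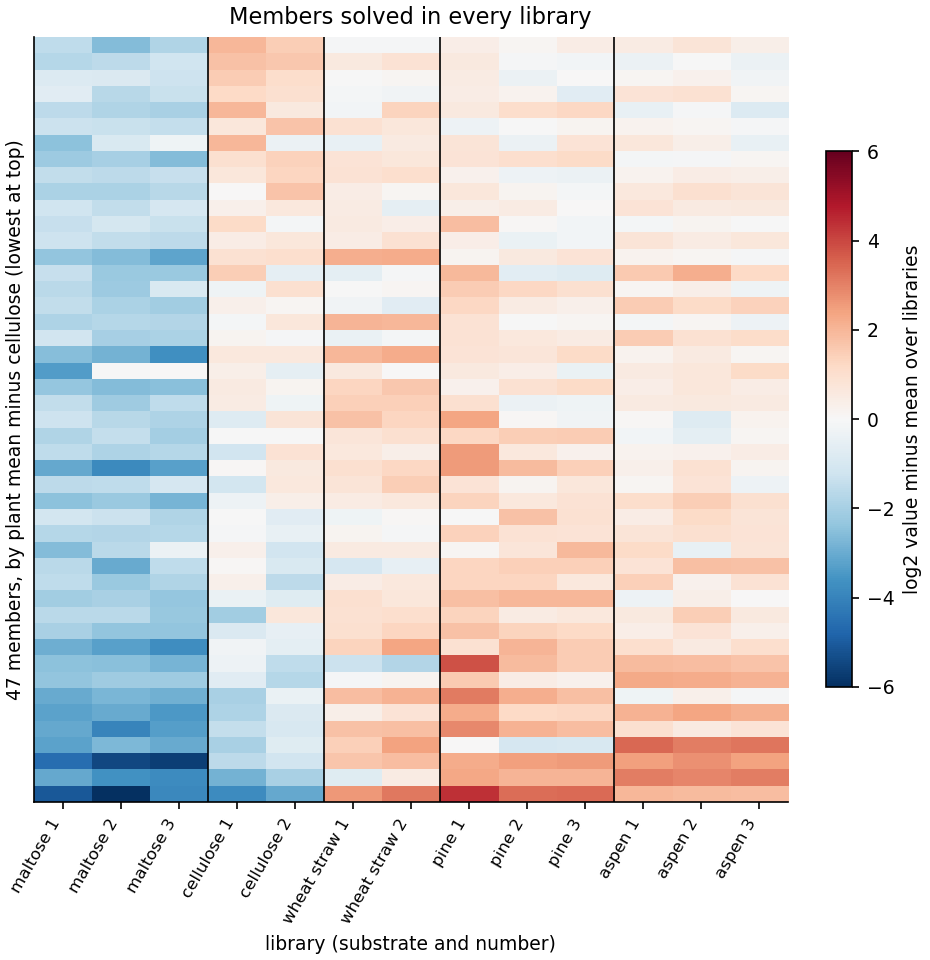
Log2(normalised reads + 1) of the 47 members solved in all 13 libraries (rows, ordered by plant mean minus cellulose, lowest at the top), minus the mean of the row over libraries, with 1 column per library. Maltose libraries are mostly low, cellulose is high at the top and low at the bottom, and pine library 1 stands above the other pine libraries in many rows.

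The comparisons among the 3 plant materials were not used by the rule and were tested. Each was fitted with limma across all 1052 genes and 13 libraries, with Benjamini-Hochberg adjustment over all genes. The spread of a gene was pooled over all its solved substrates, including those outside the comparison. Members are counted as called where the adjusted p was under 0.05 and the difference reached 1 log2 unit. Pine is a softwood, aspen a hardwood and wheat straw a grass. Aspen was also milled more finely, to 1 mm, and its maltose concentration is unclear, so plant material, particle size and maltose cannot be told apart in the comparisons with aspen. In all, 39 of the 72 members, 54.2%, were called in at least 1 of the 3 comparisons, beside 43.4% of all genes. The other 33 were called in none. The 3 comparisons share libraries in pairs, so their calls are given side by side and their overlap is not used.

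Between the woods, pine was the higher for 16 members and aspen for 3, at median differences of 1.5 and -1.45. These are 22.2% and 4.17% of the members, and the same calls were made for 16.7% and 6.46% of all genes, so the members differed between the woods little more often than the rest of the table. Of the 16, only 9 were solved on both woods, and in all 9 the pine libraries were above the aspen libraries. A call with so few libraries nearly implies such a separation, so it adds no support. For the other 7 the spread on pine, on aspen or on both did not enter the test. Gene 512256 had 2726, 1461 and 1105 normalised reads on pine and 266, 391 and 299 on aspen, without overlap. The difference was 2.38 (SE 0.40, limma adjusted p = 0.0012), and its wheat straw level of 10.29 was near that on pine. Gene 437625 had 224, 254 and 258 on pine and 51.6, 82.8 and 65.1 on aspen, a difference of 1.89 (SE 0.21, limma adjusted p = 0.000197).

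The largest difference between the woods went the other way. Gene 1374521 had 577, 279 and 298 normalised reads on pine but 6209.7, 4868 and 5296 on aspen, a difference of -3.90 (SE 0.37, limma adjusted p = 8.14e-05). Wheat straw, at 1523 and 3026, lay between the woods, so pine was the plant material on which this gene was lowest, and its pine level of 8.51 was closer to cellulose, at 7.84. Gene 1432862 had 1124, 514 and 439 on pine and 1827, 1756 and 1606 on aspen, a difference of -1.45 (SE 0.34, limma adjusted p = 0.00639). Both were called under every alternative that was run, which their choice as the largest called differences favoured. The split between the directions was not stable: it was 16 against 3 as deposited, 13 against 6 after median centring of the libraries and 9 against 12 after quantile normalisation. These scalings moved the median pine minus aspen difference of all genes from 0.11 to -0.08 and 0.00. Calls over all genes under these scalings are not given here, so a move of the whole table cannot be told from one of the members.

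**Figure D4:**
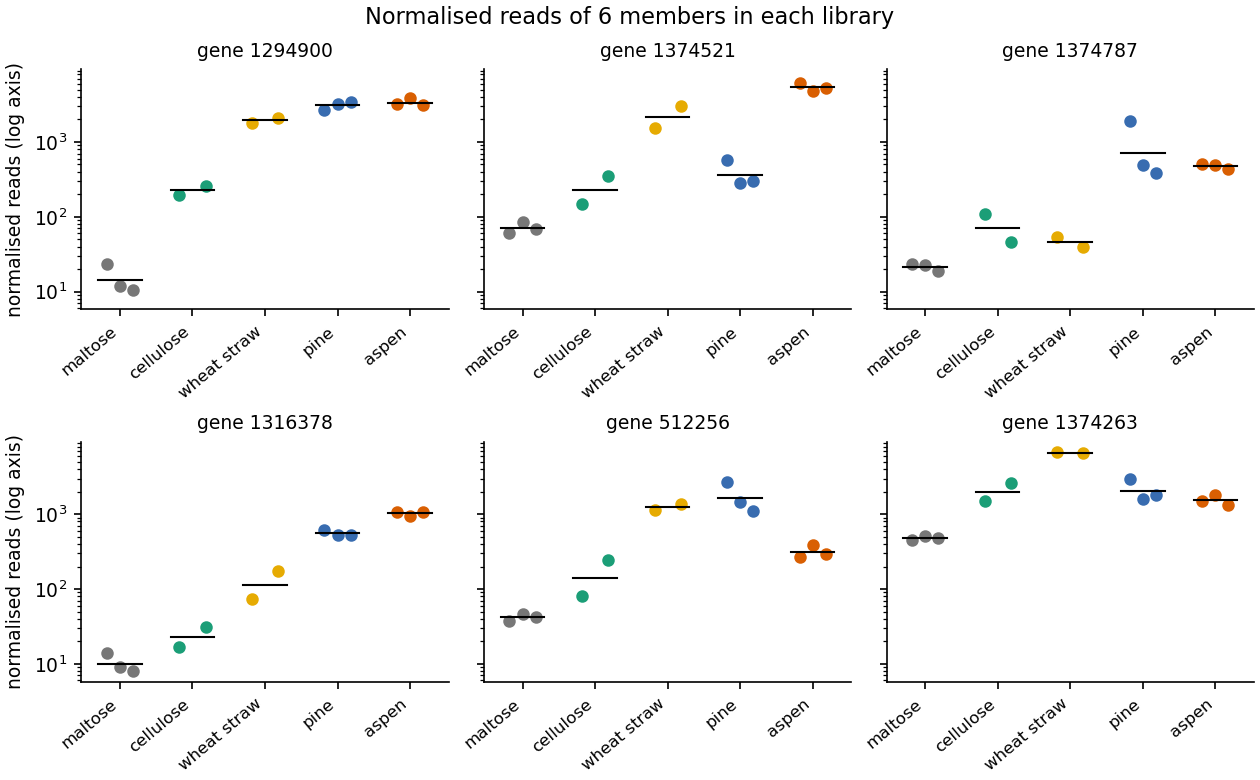
Normalised reads (y axis, log scale) of 6 members in each of the 13 libraries (points), by substrate (x axis), with the deposited mean of the substrate taken back from the log2 scale as a black bar. Gene 1374521 is highest on aspen, 1374787 and 1316378 are higher on both woods than on wheat straw, and 1374263 is highest on wheat straw.

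Against wheat straw, 17 members were higher on pine and 6 lower, at median differences of 1.65 and -1.51. These are 23.6% and 8.33% of the members, beside 18.7% and 7.98% of all genes. All 6 lower calls but only 6 of the 17 higher calls were on members solved on both substrates. For the other 11 the spread on pine did not enter the test. Members solved on pine had a median SD of 0.45 there, beside 0.21 on wheat straw. Gene 1374787 had 1901, 499 and 382 normalised reads on pine and 53.6 and 39.3 on wheat straw, a difference of 3.93 (SE 0.57, limma adjusted p = 0.000633). Pine library 1 was well above the other pine libraries here, and without it the difference was 3.22 and still called. On wheat straw this gene was close to cellulose, where it had 108 and 46.1. Gene 1316378 had 621, 523 and 523 on pine and 74.1 and 177 on wheat straw, a difference of 2.26 (SE 0.37, limma adjusted p = 0.00118). It was 1.64 without wheat straw library 1 and 2.89 without wheat straw library 2, called in both cases.

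In the other direction, gene 1374521 was lower on pine than on wheat straw by the largest margin, with a difference of -2.56 (SE 0.42, limma adjusted p = 0.00121). Gene 1374263 had 2936, 1603 and 1782 normalised reads on pine and 6695 and 6482 on wheat straw, a difference of -1.70 (SE 0.28, limma adjusted p = 0.00126). The 17 members higher on pine became 10 without wheat straw library 1 and 11 without wheat straw library 2. The 6 lower calls became 5 and 3. The remaining wheat straw library was then assumed to vary like the libraries of the other substrates. After quantile normalisation 6 members were higher and 7 lower, and the median difference of all genes moved from 0.22 to 0.02. Calls over all genes under this scaling are not given here either.

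Aspen and wheat straw were the plant materials that differed least over the whole table, where 9.79% of genes were higher on aspen and 6.08% lower. Among the members 14 were higher on aspen, or 19.4%, and 6 lower, or 8.33%, at median differences of 1.81 and -1.91. Gene 1374787 had 506, 487 and 435 normalised reads on aspen and was above wheat straw by 3.34 (SE 0.57, limma adjusted p = 0.00198). Gene 1316378 had 1063, 943 and 1068 on aspen, a difference of 3.15 (SE 0.37, limma adjusted p = 0.000248), which was 2.53 without wheat straw library 1 and 3.77 without library 2. Aspen was the substrate on which this gene was highest. Gene 1325683 was lower on aspen, with 1486, 1391 and 1195 against 5709.9 and 6005 on wheat straw, a difference of -2.11 (SE 0.25, limma adjusted p = 0.000248). Gene 1374263 was lower by 2.10 on the log2 scale (SE 0.28, limma adjusted p = 0.000466), with 1524, 1788 and 1333 on aspen. For both genes wheat straw was the highest of the 5 substrates. With either wheat straw library left out, fewer members were called higher. The lower calls became more without wheat straw library 1 and fewer without wheat straw library 2. Only 1 wheat straw library then remained, and it was assumed to vary like the libraries of the other substrates. Of the 14 higher calls 8 were on members solved on both substrates. For the other 6 the spread on aspen did not enter the test.

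**Figure D5:**
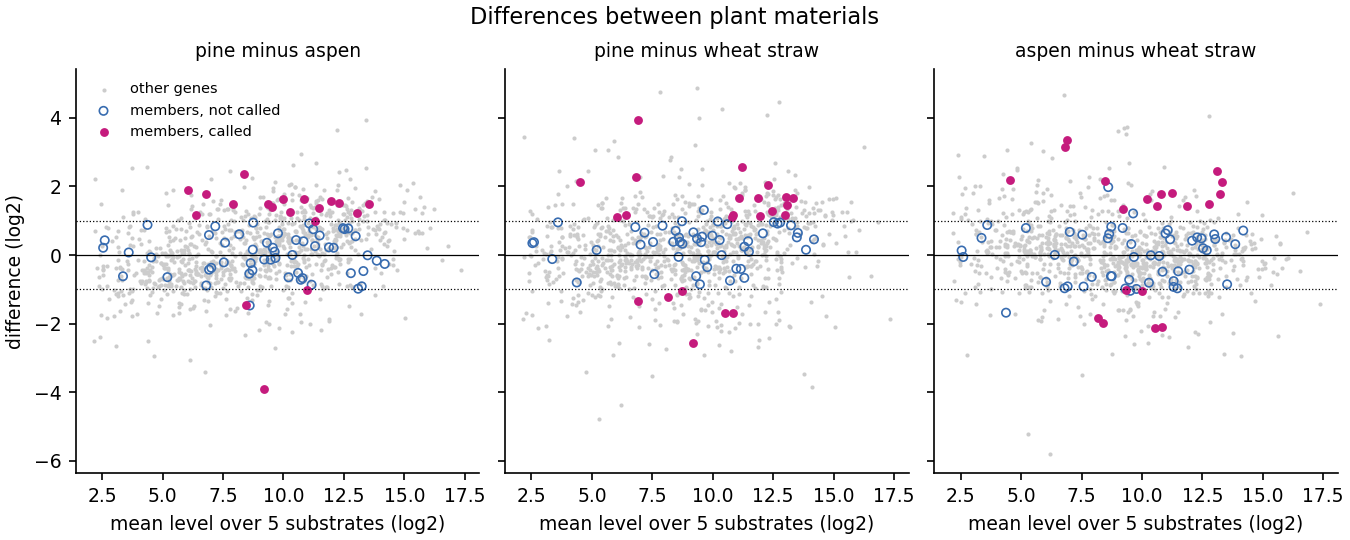
Difference between plant materials (y axis, log2) against the mean level over 5 substrates (x axis, log2) for the 72 members, called (filled magenta) or not called (open blue), and the other genes (grey), with dotted lines at differences of 1 and -1. Called members lie on both sides of 0 in each panel, with 16 above and 3 below for pine minus aspen.

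Members without a call were not shown to be alike on the plant materials. The median half-width of the 95% interval of a difference was 0.67 for pine minus aspen, 0.73 for pine minus wheat straw and 0.65 for aspen minus wheat straw among the members not called. The whole interval lay within 1 log2 unit of 0 for 18 of 53, 10 of 49 and 6 of 52 of these members. Over all genes not called it did for 322 of 808, 290 of 771 and 377 of 885, larger shares in each comparison. Gene 1323653 had levels of 10.33 on each of the plant materials, and pine and aspen differed by 0.0035 with a half-width of 0.52. Gene 1320509, chosen after its values were seen, stood 1.98 higher on aspen than on wheat straw (SE 0.79, limma adjusted p = 0.0898) and was not called. Its aspen libraries, at 1156, 1757 and 892 normalised reads, were all above those on wheat straw, at 258 and 367. The SE pools all substrates, and the SD of this gene was 1.44 on cellulose and 1.53 on pine. It was 0.49 on aspen and 0.36 on wheat straw.

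The median SD between libraries of a substrate was higher for the members than for the table as a whole on each substrate, with the closest values on aspen. It was 0.45 on cellulose and 0.45 on pine, beside 0.29 and 0.30 over all genes. On maltose, wheat straw and aspen it was 0.27, 0.21 and 0.24, beside 0.19, 0.17 and 0.23. On cellulose, 14 of 72 members had an SD above 1, the largest being 1.95 for gene 1342601, and neither library was the higher throughout: library 1 was higher for 39 members and library 2 for 33. On pine, library 1 was the highest for 32 of 50 solved members, with a median excess of 0.58 over the other pine libraries, and for 451 of 832 solved genes, by 0.19. Leaving it out changed the calls among the 50 members solved on pine little: calls higher on pine than on aspen went from 9 to 7 and than on wheat straw from 6 to 5, and the lower calls from 3 to 3 and from 6 to 7.

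Maltose library 1, the one with the lowest size factor, was the highest maltose library for 38 of 71 members, or 53.5%, beside 41.1% of all solved genes and 95.8% of the 48 genes raised by 4 or more on cellulose. It exceeded the mean of the other maltose libraries by a median of 0.23 among the members and 1.95 among those 48 genes. The excess was largest, among members, for gene 1294900 at 1.00, which without this library would rise by 4.21 on cellulose and pass the upper limit of the rule. Without it the median difference from maltose over the 71 members solved on maltose was 1.94 on cellulose and 3.12 on pine, beside 1.90 and 2.96 over all members with it. Membership itself rested on single libraries for some: of the 47 members solved in all 13 libraries, 29 met the rule with each library left out in turn and 18 did not in at least 1 case. Of the 25 others, for which some libraries could not be left out, 8 failed it in at least 1 case. Some members named for called differences between plant materials failed it too. Without cellulose library 2, genes 512256 and 1316378 rose by 0.93 and 0.67 on cellulose. Gene 1432862 rose by 0.50 there without cellulose library 1. Gene 1374787 rose by 0.84 on wheat straw without wheat straw library 1. Genes 437625, 1374521, 1374263 and 1325683, named for the same reason, met the rule each time.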

How the data were processed

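RNA-seq of Leiotrametes sp. BRFM1775 was deposited as 1 table of 1052 genes with a log2 value per gene and substrate, averaged over libraries by the authors. The submitters' processing notes name DESeq 1.5, HTSeq and TopHat2 without saying what each did. Build and choice of genes: not given in the sources used here.

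From the deposited log2 means, whole reads per library were solved (mean of log2(normalised reads + 1), tolerance 1e-09). The 60 lowest values of each column all came out whole, and 0 of 60 did with the scales moved by 1%. In simulated data 891 of 891 solved genes of 3 libraries and 1052 of 1052 of 2 libraries were right. Cellulose gave 2 libraries where the labels list 3, and which is absent is unknown. An averaged column has no depth of its own, so depth is that of the recovered reads.

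Comparisons were fitted with limma 3.58.1 in R 4.3.3 across all genes and 13 libraries, with Benjamini-Hochberg adjustment. A substrate that was not solved for a gene entered as its deposited mean, with the spread from the other substrates. On simulated pine minus aspen data 33 of 67 genes changed 2-fold and 64 of 67 changed 4-fold were called, with 3 of 852 unchanged genes. A 2-fold change lies on the limit for a call, so that share reflects the limit. Every simulated gene and substrate was given the same extra spread between libraries. The members' median SD differed by substrate, at 0.45 on pine and 0.21 on wheat straw, so these rates do not carry over to the members. Python 3.11.15, NumPy 2.4.6 and numba 0.67.0 did the rest.

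The members and the rule for named genes were chosen with earlier results of these data known. Named were the 2 genes nearest each limit on either side, the 2 members with the largest minimum rise, the smallest range, the highest and the lowest level, and the largest and smallest plant mean minus cellulose. In each direction of each tested comparison, the 2 largest called differences among members with solved libraries that did not overlap were also named. Alternatives were other scalings, read filters, rule limits, solved members only and each library left out.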

Additional observations from a re-analysis of the deposited data

How the results depend on the processing

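No paired analysis was possible because the deposited columns carry no replicate numbers. The 12 tested differences of named members kept their direction and call in all 148 alternative values. They were chosen as the largest called differences with libraries that did not overlap, which favoured this, so it adds no support. Counts moved more. Higher calls for pine minus aspen were 16 and became 9 after quantile normalisation. The 3 lower calls became 6 with median centring and 12 with quantile normalisation. For pine minus wheat straw the 17 higher calls became 6 with quantile normalisation. Calls over all genes under these scalings are not given here. Fits on only the genes solved on both substrates held fewer members, with as many higher calls among them as before. These were 9 of 47 for pine minus aspen and 6 of 50 for pine minus wheat straw. For aspen minus wheat straw they were 8 of 49. With each pine or aspen library left out, calls were counted over the members solved there, beside those with all libraries. Without a pine library, 6 to 7 of 50 members were higher for pine minus aspen, beside 9, and 3 lower, beside 3. For pine minus wheat straw 5 to 8 were higher, beside 6, and 4 to 7 lower, beside 6. Without an aspen library, 8 to 10 of 49 were higher for pine minus aspen, beside 11, and 2 lower, beside 2. For aspen minus wheat straw 7 were higher, beside 8, and 5 to 6 lower, beside 6. The cause of these moves was not tested, other than that fewer libraries enter when a library is left out. The rule gave 138 genes with lower limits of 0.5, 34 with 1.5 and 31 with each column centred on its median, 24 of them members. With a maltose, cellulose or wheat straw library left out it gave 65 to 80 genes, beside 71 or 72 on the same genes with all libraries. With a pine or aspen library left out it gave 48 to 50, beside 50 or 49. Quantile normalisation took the members' median rise to 2.11 on aspen, 2.08 on pine, 1.74 on wheat straw and 1.40 on cellulose. With 32 reads added, 37 genes met the rule beside 47 on the same genes. Depth limits the 10 members with under 20 reads in each maltose library.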
